A study of Mus musculus with 5 samples.

Results

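The axon and vessel guidance genes are the semaphorins, plexins, Slit ligands, Robo receptors, netrins, Unc5 receptors, ephrins and Eph receptors. They were chosen by gene symbol: protein-coding genes whose symbol starts with Sema, Plxn, Slit and a number, Unc5, Ntn and a number, Epha, Ephb, Efna or Efnb, plus Robo1, Robo2 and Robo3, with at least 1 peak in the SOX7, FLI1 or ERG DamID list. The rule gave 46 genes of the 9776 protein-coding genes found in at least 1 list. RefSeq names 66 mouse genes of these families, so 20 of them had no assigned peak in any list. Unc5cl falls under the rule by its symbol, although it encodes a relative of UNC5C that is not known as a netrin receptor. Unc50, a Golgi protein gene that shares only the first letters, was not counted.

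These genes encode short-range and long-range cues and their receptors, first known from growing axons and used again by sprouting vessels. Secreted class 3 semaphorins act on plexins, mostly with neuropilin as coreceptor, and Sema3e binds Plxnd1 directly in endothelium. Slit proteins signal through Robo receptors, netrins through DCC and UNC5 receptors, and ephrins through Eph receptors in both directions at cell contacts. Efnb2 and its receptor Ephb4 mark arterial and venous endothelium.

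In DamID a factor is joined to the bacterial enzyme Dam, so that GATC sequences close to where the factor sits on DNA gain methyl groups. The cells were endothelial precursors grown from mouse embryonic stem cells of the Ainv18 background. FLK1+ cells were taken from embryoid bodies at day 3, cultured for 1 day with VEGF and IL6 and sorted as cKIT+ TIE2+. The lines were iSox7::Dam for SOX7, IFli1::Dam for FLI1 and iErg::Dam for ERG, with iDam, which carries Dam alone, as the control line. There was 1 library per factor, 1 iDam control for SOX7 and 1 iDam control shared by FLI1 and ERG. Differences between factors therefore cannot be told apart from differences between lines or libraries, and no p-value is given. The lines were compared as they are, and whether each is 1 clone is not given in the labels. The files hold no expression values, so the cell type could not be checked against its markers. In a bulk library, marking in fewer cells and weaker marking per cell cannot be told apart. The lists hold 6530 genes for SOX7, 10246 for FLI1 and 1579 for ERG, with a median of 95, 169 and 36 reads per gene in that order. Intervals below are 95% Poisson intervals for reads and exact binomial intervals for shares, and they cover counting error only. Those for shares of peaks take peaks of 1 gene as independent.

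Guidance genes were listed more often than protein-coding genes as a whole for each factor, and most often for FLI1. In the SOX7 list 28 of the 66 family genes had a peak (42.4%, interval 30.3 to 55.2), against 23.0% of all protein-coding genes. In the FLI1 list 44 of the 66 had a peak (66.7%, 54.0 to 77.8), against 35.3%. In the ERG list 12 of the 66 had a peak (18.2%, 9.76 to 29.6), against 5.75%. These shares are not corrected for gene length. By list, 7 genes were found for all 3 factors, 20 for SOX7 and FLI1, 4 for FLI1 and ERG, 13 for FLI1 alone, 1 for SOX7 alone and 1 for ERG alone, while none was found for SOX7 and ERG without FLI1. The lists differ in size, with 5243 protein-coding genes for SOX7, 8122 for FLI1 and 1319 for ERG. The same split over all protein-coding genes was not computed, so these counts are not read as a trait of guidance genes.

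**Figure D1:**
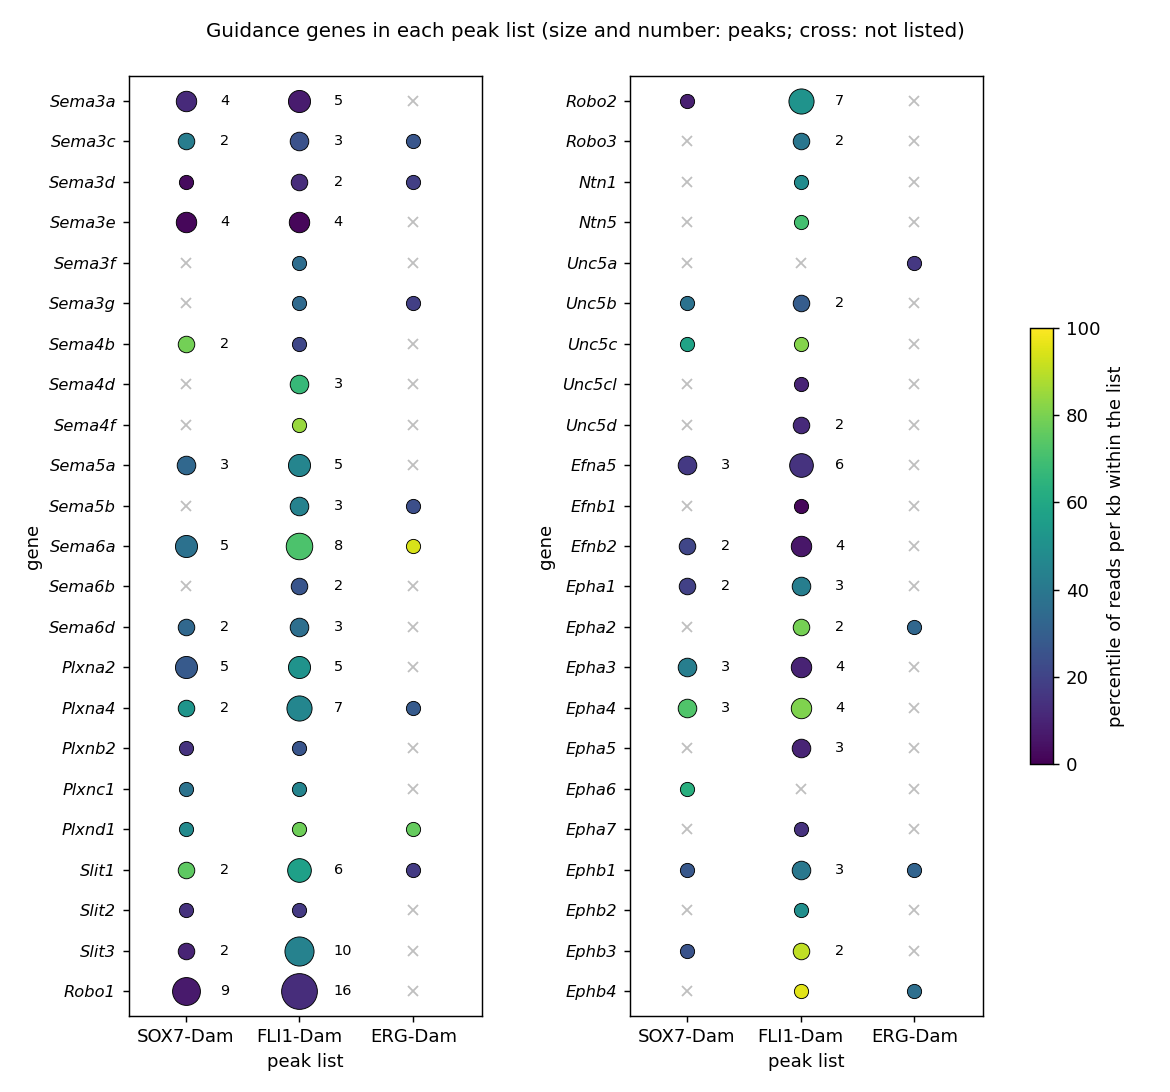
Each row is a guidance gene and each column a peak list; the size of a point and the number beside it give the peaks assigned to the gene (1 where no number stands), the colour gives the percentile of its reads per kb within that list, and a cross means not listed. Robo1 has the most peaks, 9 for SOX7 and 16 for FLI1, and the bright ERG point is Sema6a at percentile 94.1.

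The ligands and the receptors were listed in like numbers. Of 35 ligand genes 13 were listed for SOX7, 22 for FLI1 and 6 for ERG, and of 31 receptor genes 15, 22 and 6. The Slit and Robo genes were the most completely listed for SOX7 and FLI1: all 3 Slit genes for SOX7 and FLI1, all 3 Robo genes for FLI1, and Robo1 and Robo2 for SOX7. Secreted class 3 semaphorins followed: FLI1 listed 6 of the 7 genes, SOX7 listed 4 and ERG 3. Of the 13 genes for membrane-bound semaphorins, classes 4 to 7, FLI1 listed 8, SOX7 listed 4 and ERG 2. The same 5 of 9 plexin genes, Plxna2, Plxna4, Plxnb2, Plxnc1 and Plxnd1, were listed for SOX7 and for FLI1. All 5 Unc5 genes were in at least 1 list, 4 of them for FLI1, 2 for SOX7 and 1 for ERG. Of the 4 netrin genes, Ntn1 and Ntn5 were in the FLI1 list, and none was in the others. Ephrin-A genes were the least listed group, with Efna5 alone of 5 genes, although 7 of their 9 EphA receptor genes were listed for at least 1 factor.

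The 20 family genes in no list were 5 ephrins (Efna1, Efna2, Efna3, Efna4 and Efnb3), 3 Eph receptors (Epha8, Epha10 and Ephb6), 2 netrins (Ntn3 and Ntn4), 4 plexins (Plxna1, Plxna3, Plxnb1 and Plxnb3) and 6 semaphorins (Sema3b, Sema4a, Sema4c, Sema4g, Sema6c and Sema7a). Reads outside called peaks are not in these tables, so absence from a list is no measure of zero marking.

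Listed guidance genes carried several peaks more often than listed protein-coding genes as a whole in the SOX7 and FLI1 lists. These counts are not corrected for gene length, so they are not read as a trait of guidance genes. For SOX7, 17 of 28 had 2 or more peaks (60.7%, 40.6 to 78.5), against 33.9% of all SOX7 protein-coding genes, and for FLI1 28 of 44 did (63.6%, 47.8 to 77.6), against 39.5%. The mean was 2.36 peaks for SOX7 guidance genes, against 1.70 for SOX7 protein-coding genes, and 3.23 for FLI1 guidance genes, against 1.86 for FLI1 protein-coding genes. With 5 or more peaks there were 3 genes for SOX7 (10.7%, 2.27 to 28.2, against 4.35%) and 10 for FLI1 (22.7%, 11.5 to 37.8, against 6.01%). In the ERG list each of the 12 genes had a single peak, so 0 of 12 had 2 or more (0%, 0 to 26.5, against 8.87% of ERG protein-coding genes) and 0 of 12 had 5 or more, against 0.152%.

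Robo1, a receptor for Slit proteins, stood at the top of this count with 16 FLI1 peaks spread over 354 kb and 9 SOX7 peaks over 352 kb. Its reads per kb were low all the same, 42.1 (39.7 to 44.7) in the FLI1 list at percentile 12.7 and 25.2 (22.8 to 27.7) in the SOX7 list at percentile 6.91. Slit3, a Robo ligand, had 10 FLI1 peaks with 1286 reads and 2 SOX7 peaks with 75 reads. Sema6a, a membrane semaphorin that acts through class A plexins, had 8 FLI1 and 5 SOX7 peaks, and Plxna2, one of those plexins, had 5 in each list. Robo2 had 7 FLI1 peaks over 572 kb and 1 SOX7 peak with 28 reads. Plxna4 also had 7 FLI1 peaks, and Sema3a and Sema3e, both secreted semaphorins, had 4 SOX7 peaks each.

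Guidance genes were listed often, but the density of reads in their peaks was low. Reads per kb of peak are not scaled to library size, so they are ranked within a list, where 100 is the densest gene. The median guidance gene stood at percentile 30.6 for SOX7, 39.6 for FLI1 and 27.7 for ERG, against 50.2, 50.9 and 49.5 for all protein-coding genes of those lists. Only 6 of 28 SOX7 guidance genes lay above the list median (21.4%, 8.30 to 41.0, against 50.2%), 13 of 44 for FLI1 (29.5%, 16.8 to 45.2, against 50.9%) and 2 of 12 for ERG (16.7%, 2.09 to 48.4, against 49.3%). Below percentile 25 lay 11 of 28 for SOX7 (39.3%, 21.5 to 59.4, against 24.5%), 14 of 44 for FLI1 (31.8%, 18.6 to 47.6, against 23.7%) and 5 of 12 for ERG (41.7%, 15.2 to 72.3, against 25.2%), and for all 3 the background lay inside the interval. Above percentile 90 there were 0 of 28 for SOX7 (0%, 0 to 12.3, against 9.84%), 2 of 44 for FLI1 (4.55%, 0.555 to 15.5, against 9.84%) and 1 of 12 for ERG (8.33%, 0.211 to 38.5, against 9.63%). These backgrounds too lay inside the intervals. The low rank was seen with 1 peak and with more: guidance genes with 1 peak stood at a median percentile of 27.2 for SOX7 and 40.3 for FLI1, against 48.0 and 49.3 for protein-coding genes with 1 peak, and guidance genes with 2 or more at 33.3 and 39.6, against 53.0 and 52.8. The total reads per gene gave another order, because they add up over peaks, with a median of 111.5 reads in SOX7 guidance genes, against 100 in SOX7 protein-coding genes, and 251 in FLI1 guidance genes, against 176 in FLI1 protein-coding genes. For ERG the medians were 22.5 reads in guidance genes and 36 in protein-coding genes. Ranked by total reads, the median percentile of guidance genes was 56.3 for SOX7 and 66.6 for FLI1, so their place below the middle of these lists holds for reads per kb only.

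The median ranks of the gene groups were spread widely. Secreted semaphorins were low in every list, with a median percentile of 7.58 for SOX7 (4 genes), 18.9 for FLI1 (6 genes) and 18.7 for ERG (3 genes). Robo1 and Robo2 had a median of 7.94 for SOX7. At the upper end of the FLI1 list were the 4 EphB receptor genes with a median percentile of 70.0 and the 2 netrin genes with 59.0, while the 2 EphB genes of the SOX7 list had 26.3. Each of these medians rests on 6 genes or fewer, and differences between groups of genes were not tested.

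**Figure D2:**
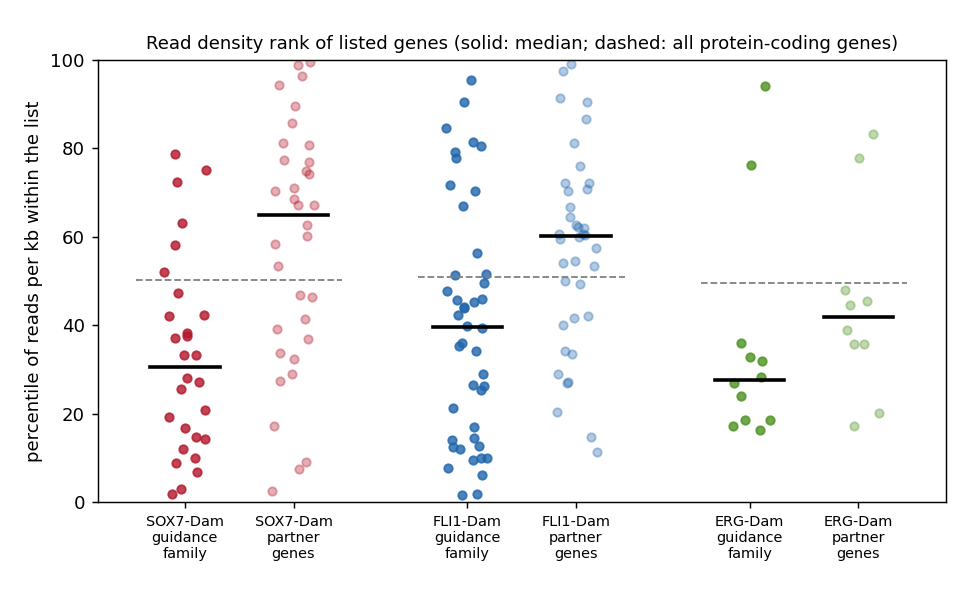
The vertical axis is the percentile of reads per kb within a list; each point is a listed gene, the solid line is the median of its group, and the dashed line is the median of all protein-coding genes of that list. Guidance genes lie mostly below the dashed line in all 3 lists (medians 30.6, 39.6 and 27.7), while their partner genes have medians of 65.0 for SOX7, 60.1 for FLI1 and 41.8 for ERG.

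The densest guidance genes differed between lists. In the FLI1 list Ephb4, the venous receptor of ephrin-B2, led at percentile 95.5, with 239 reads in 1 peak, that is 170.6 reads per kb (149.6 to 194) or 2.48 times the median of the list. Ephb3, a receptor of the same class, followed with 134 reads per kb at percentile 90.4, then the membrane semaphorin gene Sema4f with 113.5 and the netrin receptor gene Unc5c with 106. Epha4, an Eph receptor that binds ephrins of class A and some of class B, came next with 104.8. In the SOX7 list Sema4b, another membrane semaphorin gene, led with 74.2 reads per kb (62.0 to 88.1) at percentile 78.8, followed by Slit1 with 69.2 at percentile 75.0 and Epha4 with 66.3 at percentile 72.3. Epha6 and Unc5c came after them with 57.8 and 54.2. In the ERG list Sema6a led with 170 reads in 1 peak, which is 117 reads per kb (100.2 to 136) or 3.70 times that list's median, and Plxnd1 had 56.4 at percentile 76.2. Ephb4, Epha2 and Ephb1 came next with 24.8, 23.5 and 23.3. Apart from Sema6a and Plxnd1, the ERG genes, 10 in number, had between 14 and 57 reads and lay between percentiles 16.4 and 36.0. At the low end stood Sema3e, at percentile 1.95 of the SOX7 list and 1.75 of the FLI1 list, and the FLI1 entries of Efnb1 at percentile 1.78 and Efnb2 at 6.23.

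The genes listed for all 3 factors were the ligands Sema3c, Sema3d, Sema6a and Slit1 and the receptors Plxna4, Plxnd1 and Ephb1. Sema3c (ENSMUSG00000028780), a secreted semaphorin needed for the cardiac outflow tract, was the only guidance gene with a region where peaks of all 3 factors met. At the whole gene SOX7 had 100 reads in 2 peaks (44.4 reads per kb, percentile 42.0), FLI1 263 reads in 3 (51.5, percentile 25.3) and ERG 33 reads in 1 (21.3, percentile 26.9). The region ran from 17252699 to 17254471 on chromosome 5 (mm9), was 1773 bp wide, and held 801 bp common to the peaks of all 3. In none of the lists was Sema3c above the median density. The share of ERG peaks in such regions was 1 of 12 at guidance genes (8.33%, 0.211 to 38.5), against 25.7% at all ERG protein-coding genes, and the share of SOX7 peaks 1 of 66 (1.52%, 0.0384 to 8.16), against 4.21%. For FLI1 it was 1 of 142 (0.704%, 0.0178 to 3.86), against 2.51%. These backgrounds lie inside the intervals of the guidance genes.

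Plxnd1 (ENSMUSG00000030123), the endothelial plexin, was marked differently. Its SOX7 peak from 115955634 to 115956734 on chromosome 6 contained the whole of its ERG peak, 851 bp wide, while its FLI1 peak lay 32.1 kb away from the SOX7 peak. SOX7 had 52 reads (47.2 reads per kb, percentile 47.4), FLI1 134 reads (99.2, percentile 77.9) and ERG 48 reads (56.4, percentile 76.2). Regions of SOX7 and ERG alone numbered 1 at guidance genes and 123 in the whole series. Those of FLI1 and ERG alone numbered 7 and 374, and those of SOX7 and FLI1 alone 21 and 3078. Plxnd1 was the only guidance gene with a region of SOX7 and ERG without FLI1. Sema6a (ENSMUSG00000019647) showed the opposite arrangement on chromosome 18: its ERG peak from 47529314 to 47530764 lay inside the widest of its FLI1 peaks, 5401 bp, and 24.7 kb from the nearest SOX7 peak. There 1 other FLI1 peak, 93.2 kb from the ERG peak, met a SOX7 peak over 1265 bp. Sema6a had 347 SOX7 reads (41.8 reads per kb, percentile 37.2) and 1524 FLI1 reads (89.9, percentile 71.6), the most FLI1 reads of any guidance gene.

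At Slit1 (ENSMUSG00000025020), on chromosome 19, SOX7 had 232 reads in 2 peaks, FLI1 889 reads in 6 and ERG 21 reads in 1. The ERG peak from 41748336 to 41749486 lay inside 1 FLI1 peak, and the next FLI1 peak met a SOX7 peak 1.27 kb away from it, so that the factors were side by side without a region of all 3. At Plxna4 (ENSMUSG00000029765) SOX7 had 123 reads in 2 peaks, FLI1 770 reads in 7 and ERG 22 reads in 1. Its ERG peak lay inside a FLI1 peak, and both were also assigned to the antisense gene B230378P21Rik, from which they cannot be told apart. A SOX7 peak 59.9 kb from the ERG peak met another FLI1 peak. At Sema3d (ENSMUSG00000040254) and Ephb1 (ENSMUSG00000032537) a SOX7 and a FLI1 peak met, while the ERG peak lay apart. The gap to the nearest FLI1 peak was 69.2 kb at Sema3d, where ERG had 14 reads, and 332 kb at Ephb1, where ERG had 21 reads. Sema3d had 92 SOX7 reads at percentile 3.10 and 141 FLI1 reads at percentile 12.6, and Ephb1 had 49 SOX7 reads at percentile 27.2 and 446 FLI1 reads at percentile 39.9.

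**Figure D3:**
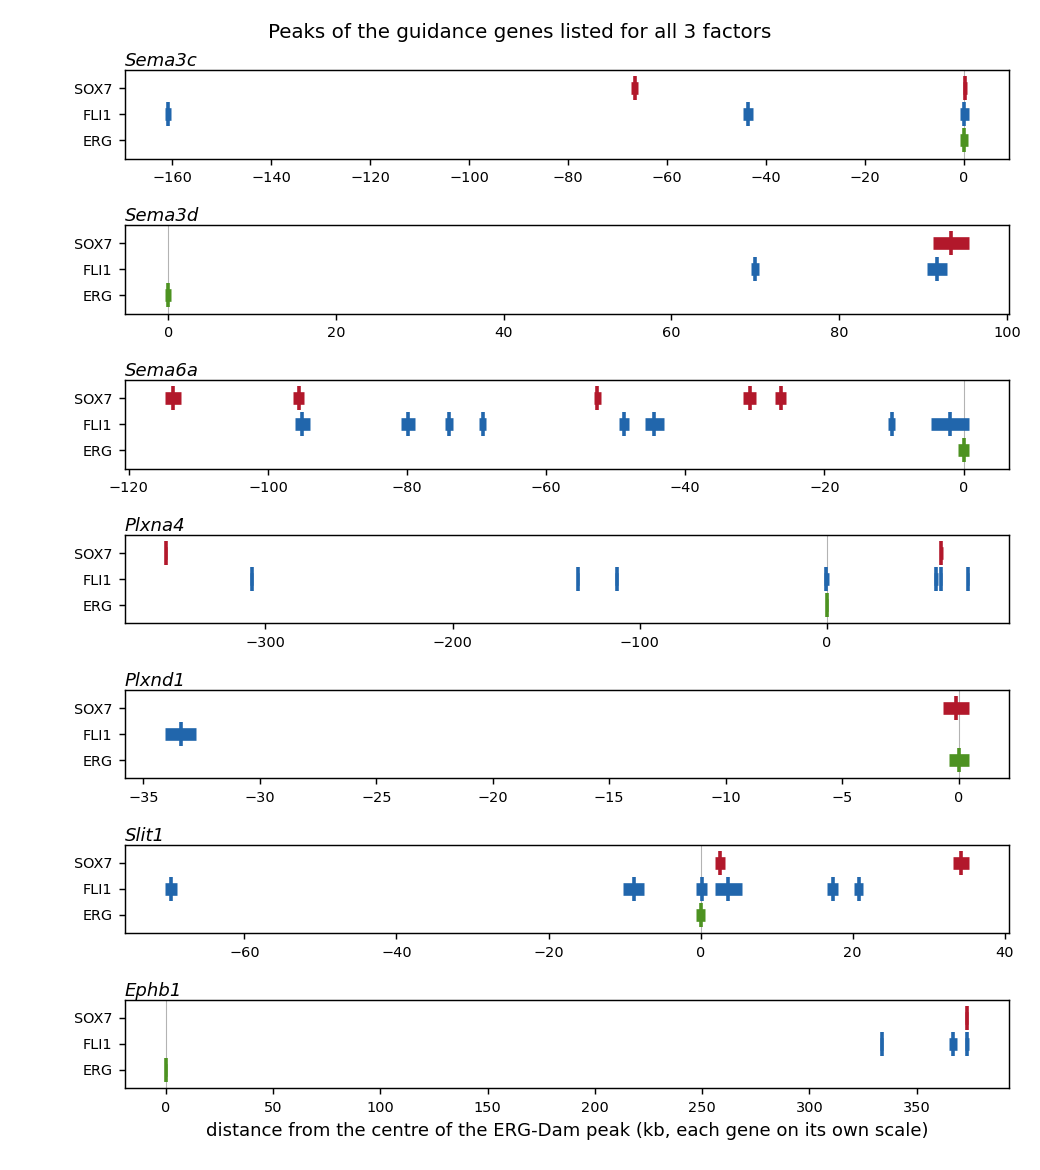
Each panel shows 1 gene, the horizontal axis is the distance in kb from the centre of its ERG-Dam peak on the gene's own scale, blocks are peaks drawn to their width, and a vertical tick marks the centre of each. The peaks of all 3 factors stand above each other only at Sema3c; at Plxnd1 SOX7 stands over ERG, and at Ephb1 the ERG peak is 332 kb from the nearest FLI1 peak.

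Promoters are shown for those of these genes that the RefSeq promoter table holds, as examples of the DNA next to their starts. Slit1, Plxna4 and Sema6a have no entry. Each line gives the 250 bases before the start, read 5′ to 3′ on the gene's strand, from RefSeq on GRCm38.p6, so these positions cannot be set against the mm9 peaks. Capitals mark GATC, the site that Dam methylates, the ETS core CCGGAA, and the SOX core ACAATG with its first variant ACAAAG and its second variant ACAATA, each searched on both strands. The windows are chr6:115995006-115995255 on the minus strand for Plxnd1, chr9:102354694-102354943 on the minus strand for Ephb1, chr5:17574566-17574815 on the plus strand for Sema3c and chr5:12382916-12383165 on the plus strand for Sema3d.
Plxnd1: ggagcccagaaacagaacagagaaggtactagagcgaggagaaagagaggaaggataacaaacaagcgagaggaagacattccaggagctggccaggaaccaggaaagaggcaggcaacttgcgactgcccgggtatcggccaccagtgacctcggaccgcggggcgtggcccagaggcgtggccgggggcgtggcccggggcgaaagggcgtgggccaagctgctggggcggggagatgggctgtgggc
Ephb1: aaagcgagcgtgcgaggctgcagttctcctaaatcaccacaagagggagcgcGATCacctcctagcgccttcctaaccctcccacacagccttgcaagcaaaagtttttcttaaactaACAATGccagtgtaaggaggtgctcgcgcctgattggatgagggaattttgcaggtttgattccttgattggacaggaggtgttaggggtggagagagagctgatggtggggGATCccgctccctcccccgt
Sema3c: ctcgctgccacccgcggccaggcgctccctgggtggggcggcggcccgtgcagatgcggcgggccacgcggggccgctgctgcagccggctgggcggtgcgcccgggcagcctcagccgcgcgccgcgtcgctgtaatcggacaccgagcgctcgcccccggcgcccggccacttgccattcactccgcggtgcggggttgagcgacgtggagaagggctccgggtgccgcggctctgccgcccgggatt
Sema3d: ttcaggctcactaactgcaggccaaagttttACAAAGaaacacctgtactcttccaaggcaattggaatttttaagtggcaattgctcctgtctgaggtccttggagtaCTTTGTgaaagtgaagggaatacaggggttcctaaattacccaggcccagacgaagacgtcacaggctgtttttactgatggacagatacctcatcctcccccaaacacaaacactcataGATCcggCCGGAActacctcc
The Sema3d window held 1 GATC site, 1 ETS core and 2 SOX cores, and the Ephb1 window 2 GATC sites and 1 SOX core. The Plxnd1 and Sema3c windows held none of these letters, and 64.8% and 78.4% of their bases were G or C, against 54.0% for Ephb1 and 46.8% for Sema3d. Among the 32851 promoter windows that RefSeq gives for all genes, 41.9% held GATC, 12% the ETS core and 30.5% a SOX core. Of 49 windows of guidance genes, 22 held GATC (44.9%), 4 the ETS core (8.16%) and 8 a SOX core (16.3%). These windows belong to 40 of the 46 genes, and the differences from all windows were not tested. A match is a string of letters and not a measured site.

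The 4 genes of FLI1 and ERG without SOX7 were the ligands Sema3g and Sema5b and the Eph receptors Epha2 and Ephb4, and at each the ERG peak met a FLI1 peak. At Ephb4 the FLI1 peak from 137789271 to 137790671 on chromosome 5 lay wholly inside the ERG peak, which had 57 reads and 24.8 reads per kb at percentile 36.0. At Epha2, an Eph receptor of tumour and activated vessels, the ERG peak with 20 reads lay inside the second of its FLI1 peaks, and FLI1 had 594 reads and 101.5 reads per kb at percentile 79.1. Sema3g, a secreted semaphorin of arterial endothelium, had 58 FLI1 reads and 14 ERG reads in peaks that shared 717 bp on chromosome 14. Sema5b had 481 FLI1 reads in 3 peaks and 23 ERG reads in a peak inside 1 of them. The peaks of FLI1 and of ERG were called with 1 control in common, so overlap that comes from it cannot be told apart from overlap of the factors.

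The 20 genes listed for SOX7 and FLI1 included the arterial ligand Efnb2 and the endothelial receptor Unc5b. They had between 28 SOX7 reads, at Robo2, and 408, at Robo1, and between 81 FLI1 reads, at Plxnb2, and 1286, at Slit3. At Efnb2, the arterial ephrin, SOX7 had 137 reads in 2 peaks and FLI1 237 reads in 4, and none of them met, although the closest pair lay 0.493 kb apart. It was low in both lists, at percentile 20.8 for SOX7 and 6.23 for FLI1, and Ephb4, its receptor, was absent from the SOX7 list. A SOX7 peak assigned to another gene lay 9.56 kb from the FLI1 peak of Ephb4, and the assignment rule is not known. Unc5b, a netrin receptor of endothelial tip cells, had 1 SOX7 peak with 40 reads at percentile 37.5 and 2 FLI1 peaks with 507 reads at percentile 29.0, and these lay 36.5 kb apart. Unc5c had 57 SOX7 and 218 FLI1 reads in peaks 273 kb apart. Sema3e, the Plxnd1 ligand, had 129 SOX7 reads in 4 peaks and 323 FLI1 reads in 4 peaks, and 1 pair met.

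Among the other genes of this group, Robo1 had 4 positions where a SOX7 and a FLI1 peak met, Plxna2 had 3 and Sema3a had 2. Efna5, Epha1, Sema4b, Sema5a, Sema6d and Slit3 had 1 each. At Sema4b the lone FLI1 peak, with 6951 bp the widest of all guidance peaks, contained 1 of its SOX7 peaks. At Epha3, Epha4, Ephb3, Plxnb2, Plxnc1, Robo2 and Slit2 the factors did not meet, with smallest gaps between 1.42 kb at Robo2 and 61.2 kb at Plxnc1. Epha4 was high in both lists, at percentiles 72.3 for SOX7 and 80.6 for FLI1, yet its 3 SOX7 and 4 FLI1 peaks stayed at least 4.85 kb apart.

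Of the guidance genes listed for a single factor, 13 were FLI1 genes, 1 was a SOX7 gene and 1 an ERG gene. FLI1 also has the longest list, with 8122 protein-coding genes against 5243 for SOX7 and 1319 for ERG. The same split over all protein-coding genes was not computed. The FLI1 genes of this kind had between 35 and 482 reads and lay between percentiles 1.78 and 84.5. The 13 were Efnb1, Epha5, Epha7, Ephb2, Ntn1, Ntn5, Robo3, Sema3f, Sema4d, Sema4f, Sema6b, Unc5cl and Unc5d. Ntn1, the founding netrin, had 165 reads in 1 peak at percentile 47.8, and Sema4d, which binds Plxnb1, had 482 reads in 3 peaks at percentile 66.9. A few peaks were assigned to a second gene too: 1 of 66 SOX7 peaks (1.52%, against 5.46% for protein-coding genes), 4 of 142 FLI1 peaks (2.82%, against 6.92%) and 1 of 12 ERG peaks (8.33%, against 8.76%). The lone peak of Ntn5 was of this kind, shared with Sec1, and so was 1 of the 3 FLI1 peaks of Epha1, shared with Zyx. Epha6 was the gene of SOX7 alone, with 81 reads in 1 peak at percentile 63.1, and its nearest FLI1 peak lay 121 kb away. Unc5a was the gene of ERG alone, with 25 reads at percentile 16.4 and a FLI1 peak of another gene 19.1 kb away. Where a guidance gene was missing from a list, none of its peaks in the other lists met a peak of that factor assigned to another gene.

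Of the 28 SOX7 genes 27 were also in the FLI1 list (96.4%, 81.7 to 99.9), against 71.9% of SOX7 protein-coding genes, and of the 44 FLI1 genes 27 were in the SOX7 list (61.4%, 45.5 to 75.6), against 46.4%, which lies inside the interval. Genes with more peaks were shared more often among all genes. Within genes of equal peak number the FLI1 guidance genes were close to the others: 6 of 16 with 1 peak were in the SOX7 list (37.5%, against 33.7%), 11 of 18 with 2 to 4 peaks (61.1%, against 61.7%) and 10 of 10 with 5 or more (100%, against 89.8%). For SOX7 guidance genes with 1 peak, 10 of 11 were in the FLI1 list (90.9%, against 64.0%), with 2 to 4 peaks 14 of 14 (100%, against 85.7%) and with 5 or more 3 of 3 (100%, against 98.7%). Of the 12 ERG genes 11 were in the FLI1 list (91.7%, 61.5 to 99.8, against 81.0%) and 7 in the SOX7 list (58.3%, 27.7 to 84.8, against 62.3%). In the other direction ERG listed 11 of the 44 FLI1 genes (25.0%, 13.2 to 40.3, against 13.2%) and 7 of the 28 SOX7 genes (25.0%, 10.7 to 44.9, against 15.7%).

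At the level of peak positions no share of the guidance genes in the full lists was set apart from its background by its interval. The ERG peaks number 12 and their intervals are wide, so nearness to the background cannot be read from them. Of their 66 SOX7 peaks 22 were overlapped by a FLI1 peak by at least 1 bp (33.3%, 22.2 to 46.0), against 35.1% of the peaks of all SOX7 protein-coding genes. Of their 142 FLI1 peaks 22 were overlapped by a SOX7 peak (15.5%, 9.97 to 22.5, against 20.9%) and 8 by an ERG peak (5.63%, 2.46 to 10.8, against 4.75%). Of the 12 ERG peaks 8 were overlapped by FLI1 (66.7%, 34.9 to 90.1, against 49.7%) and 2 by SOX7 (16.7%, 2.09 to 48.4, against 32.0%). The 2 SOX7 peaks that met ERG were those of Sema3c and Plxnd1, a share of 3.03% (0.369 to 10.5), against 5.16%. Counted per gene, peaks met at 16 of the 27 genes of SOX7 and FLI1 (59.3%, 38.8 to 77.6, against 62.8% of all protein-coding genes in both lists), 8 of the 11 of FLI1 and ERG (72.7%, 39.0 to 94.0, against 63.9%) and 2 of the 7 of SOX7 and ERG (28.6%, 3.67 to 71.0, against 53.8%). The intervals for peaks take peaks of 1 gene as independent, although Robo1 alone had 16 of the 142 FLI1 peaks and 9 of the 66 SOX7 peaks. With that limit, all these background shares lay inside the intervals of the guidance genes. With each list trimmed to the denser 50% of its protein-coding genes this did not hold for FLI1 peaks met by SOX7, which were 1 of 42 at guidance genes (2.38%, 0.0603 to 12.6), against 19.8% at all protein-coding genes of the trimmed list. Trimming by density removed most guidance genes, leaving 13 for FLI1 and 6 for SOX7 with 11 peaks. The cause of the low share was not tested. Its interval takes peaks of 1 gene as independent, and no conclusion is drawn from this share.

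**Figure D4:**
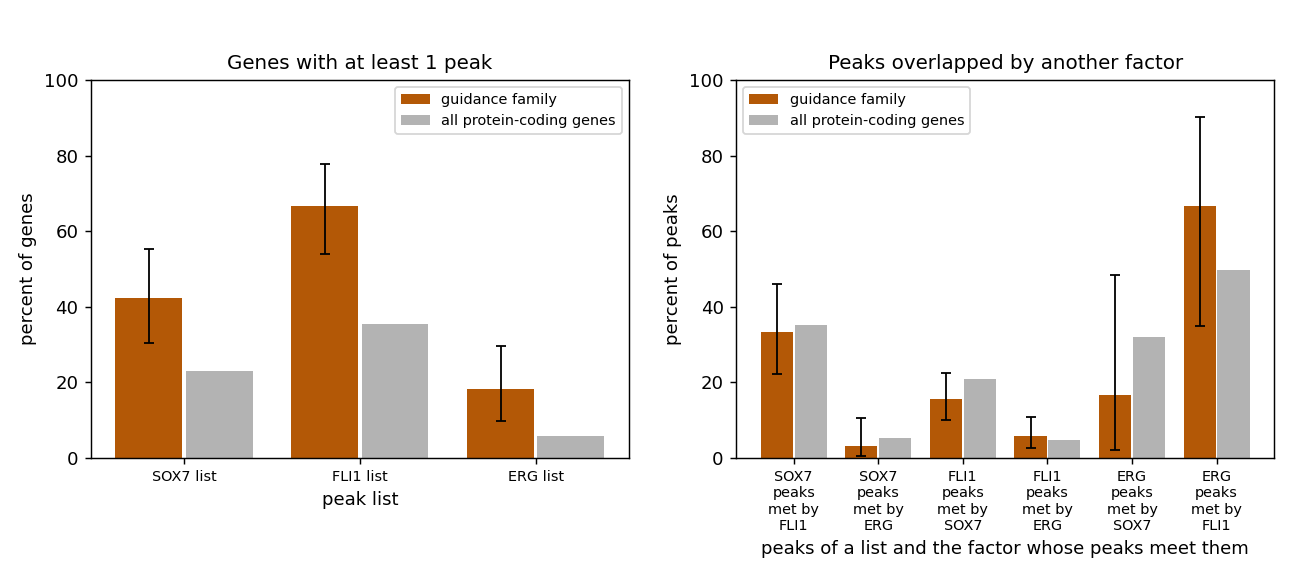
Left, the percent of genes with at least 1 peak in each list, for the 66 guidance family genes and for all RefSeq protein-coding genes; right, the percent of peaks in 1 list that a peak of another factor overlaps. Whiskers are 95% exact binomial intervals, which in the right panel take peaks of 1 gene as independent. The grey bars lie below the whiskers in the left panel (23.0%, 35.3% and 5.75%) and within them in the right panel.

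Among all protein-coding genes, those with a peak that met another factor had a higher median density percentile than the others in each list. Among guidance genes the medians were higher for 4 of the 6 pairs of lists and lower for the other two, SOX7 met by FLI1 and FLI1 met by SOX7. SOX7 guidance genes with a peak met by FLI1 had a median percentile of 27.6 (16 genes), and those without one 37.9 (12 genes), where SOX7 protein-coding genes had 57.1 with and 43.7 without. FLI1 guidance genes met by SOX7 had 37.9 (16 genes) and the others 41.8 (28 genes), where FLI1 protein-coding genes had 65.6 and 43.7. FLI1 guidance genes met by ERG had 51.1 (8 genes) and the others 35.6 (36 genes), where FLI1 protein-coding genes had 74.2 and 48.5. The 2 SOX7 guidance genes met by ERG had 44.7 and the others 27.6, where SOX7 protein-coding genes had 65.5 and 48.7. The 2 ERG guidance genes met by SOX7 had 51.5 and the others 26.2, where ERG protein-coding genes had 68.8 and 40. For ERG met by FLI1 the guidance genes had 27.7 (8 genes) and 25.3 (4 genes), and the protein-coding genes 60.2 and 38.1. Several of these medians rest on a few genes, and no difference between guidance genes and all genes was tested.

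Partner genes of the same pathways were listed in larger shares than the guidance genes for SOX7 and FLI1 and in a like share for ERG, and stood at higher median percentiles in all 3 lists. These differences were not tested. The partners are 49 genes. Of these, 14 encode coreceptors, other receptors and further surface or secreted proteins of these pathways, some of them ligands. The others are effector genes, for the proteins that carry the signal to the cytoskeleton. All 49 were chosen from textbook knowledge, whereas the guidance genes were taken by symbol, so the sets were not chosen alike. The shares are not corrected for gene length. SOX7 listed 34 of the 49 (69.4%, 54.6 to 81.7, against 23.0% of protein-coding genes), FLI1 38 (77.6%, 63.4 to 88.2, against 35.3%) and ERG 10 (20.4%, 10.2 to 34.3, against 5.75%). Of the 14 genes for receptors and other surface or secreted proteins SOX7 and FLI1 listed 9 each and ERG 3. Of the 35 effector genes SOX7, FLI1 and ERG listed 25, 29 and 7 in that order. Of the 49 partner genes 10 were listed for all 3 factors, and the same share over all protein-coding genes was not computed. The 10 genes listed for all 3 factors were the semaphorin coreceptor gene Nrp1, the netrin receptor gene Dscam, Lrrc4, whose product binds a netrin-G protein, and the effector genes Dpysl2, Srgap2, Mical3, Fyn, Vav2, Tiam1 and Kalrn. Dpysl2, which encodes the semaphorin effector CRMP2, was the densest of them in the FLI1 and ERG lists, with 942 FLI1 reads in 2 peaks (281 reads per kb, percentile 99.1), 215 ERG reads at percentile 83.3 and 143 SOX7 reads at percentile 89.6, and peaks of each pair of factors met there. Tiam1, a Rac exchange factor downstream of Eph receptors, had 433 SOX7 reads in 3 peaks and 104 ERG reads in 2 peaks, and both ERG peaks met SOX7 and neither met FLI1. The ERG peaks of Dscam and Lrrc4 and 1 of the 2 of Kalrn, another Rac exchange factor, likewise met a SOX7 and no FLI1 peak. The whole series held 123 regions of SOX7 and ERG without FLI1, and the share of such ERG peaks over all genes was not computed. Fyn, a kinase downstream of plexins and DCC, had 91 SOX7 reads in 1 peak that met a FLI1 and an ERG peak. Nrp1 had a SOX7 peak that met a FLI1 peak, while its ERG peak with 26 reads met none.

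Some partner genes chosen after their values were seen bear on the same receptors. Nrp2, the other neuropilin gene, had 6 SOX7 peaks of which 4 met FLI1, and 5 FLI1 peaks, and was not in the ERG list. Robo4, the endothelial Robo gene that the symbol rule leaves out, was listed for SOX7 alone, with 52 reads in 1 peak at percentile 71.0. Dcc, the main netrin receptor gene, was listed for FLI1 alone with 45 reads at percentile 11.3. Chn1, a Rac regulator downstream of EphA4, stood at percentile 99.5 of the SOX7 list and 62.7 of the FLI1 list.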

How the data were processed

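DamID peak tables of 3 libraries (SOX7, FLI1, ERG) were used, each called by the authors against its iDam control library, per the labels. Per the file headers the deposited values are read counts per gene and a coverage signal in reads per kb. The signal equals count per kb of summed peak length, start and end included, within 0.02, in all 6530 SOX7, 10246 FLI1 and 1579 ERG genes. It is not scaled to depth or control, so it was ranked within a list. The submitters' processing notes name mm9 as the build. Aligner, peak caller, threshold and assignment rule: not given in the sources used here. Library depth is unknown, and peaks of the control libraries were not analysed here.

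Genes were matched between lists by Ensembl identifier. They were matched to RefSeq (GRCm38.p6, 21896 protein-coding genes) by symbol or synonym for names, family size and the listed share of all protein-coding genes. This named 96.5% (SOX7), 95.5% (FLI1) and 95.7% (ERG) of the protein-coding genes, and the unnamed ones are not counted in that share. Overlap means at least 1 shared bp between unique peaks. With 1 library per factor there was no test. Shares have exact binomial and reads Poisson intervals (95%, scipy 1.17.1), and Python 3.11.15 and pandas 2.3.3 were used. Flrt3 and Mical3 have 2 identifiers each, of which the first was used. Overlap counting was tested on simulated peaks. Named genes are those listed for all 3 factors, the 5 densest and the 5 with most peaks per list, those with peaks that meet, and partners listed for all 3. Efnb1, Efnb2, Unc5b and the genes of a single list were named in addition, after their values were seen. Members and lists were chosen with earlier results of these data known. Alternatives changed the overlap rule, strength column, ranking set, gene matching and the part of each list used.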

Additional observations from a re-analysis of the deposited data

How the results depend on the processing

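Of 62 alternative settings, 49 kept the value within 1.5 times (counts) or inside the interval of the value as reported. This count is a weak check. Matching by symbol, taking any biotype and asking for assignment to the same gene returned the reported value each time. Some intervals are wide, such as 34.9 to 90.1 for ERG peaks met by FLI1. The interval of a median came from order statistics. Trimming every list to the denser 50% of its protein-coding genes, which removes genes by construction, left 6 guidance genes for SOX7, 13 for FLI1 and 2 for ERG, and 21, 25 and 2 partner genes. Of 11 SOX7 guidance peaks in the trimmed lists 9.09% met FLI1, against 33.3% of all protein-coding peaks of the trimmed list, and 0% met ERG, against 5.34%. Of 42 FLI1 guidance peaks 2.38% met SOX7, against 19.8%, and 2.38% met ERG, against 4.66%. Of 2 ERG guidance peaks 0% met SOX7, against 34.5%. The background lay outside the exact binomial interval only for FLI1 met by SOX7 (0.0603 to 12.6), and the cause was not tested. That interval takes peaks of 1 gene as independent, so no conclusion is drawn. Ranking by read count in place of density moved the median percentile of guidance genes to 56.3 for SOX7 and 66.6 for FLI1, above the middle of the list, since reads add up over the peaks of a gene. The low rank of SOX7 and FLI1 guidance genes therefore holds for reads per kb and not for total reads. Overlap of at least 500 bp or 50% of the shorter peak, and matching by symbol, changed no share beyond its interval. The ERG values rest on 12 genes, 11 of them with 57 reads or fewer. No paired analysis was possible because each factor has 1 library and the result comes from no test.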
